A study of Mus musculus with 18 samples.

Results

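The genes described here are the cytokines *Il10*, *Il19*, *Il6*, *Osm* and *Lif* and the receptor chains *Il10ra*, *Il10rb*, *Il6ra* and *Il6st*, members of the IL-10 and IL-6 cytokine families. They were found by name, as the entries of the deposited table whose symbol is one of these 9, and 9 of the 62197 entries met that rule, 1 for each gene. Each symbol was set beside the mouse GENCODE annotation, and each entry overlapped the annotated gene of its name. The entry of *Il6ra* departed from its annotation, since it spans 1179161 bases where the annotated gene spans 49354, and it overlaps 60 other entries of the table. How many of its reads belong to *Il6ra* itself is therefore uncertain, and this holds for each value of that gene below.

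The study measured RNA in mouse bone marrow-derived dendritic cells (DCs) to ask how squeezing a cell changes its gene expression and what the lipid-cutting enzyme cPLA_2_, encoded by *Pla2g4a*, has to do with it. Polyadenylated RNA was sequenced from 6 conditions with 3 libraries each, which makes 18 libraries of 33027230 to 61300021 reads on genes. Cells of both genotypes were left nonconfined, were confined under a ceiling 3 µm high, or were exposed to lipopolysaccharide (LPS), a bacterial product that matures DCs.

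According to the methods, marrow came from the legs of mice 6 to 8 weeks old on a C57BL/6 background, and all cells were cultured for 10 days with granulocyte-macrophage colony-stimulating factor. The libraries labelled KO of cPLA2 (cPLA_2_ KO, KO below) come from a conditional *Pla2g4a* knockout with Cre under *Itgax*, the gene of CD11c, so that deletion takes place only in cells that have expressed Cre. Those labelled WT of cPLA2 (cPLA_2_ WT, WT below) are the controls. Nonconfined cells were collected directly at the end of culture, confined cells 4 h after confinement, and cells given 100 ng/ml LPS, for 30 min by the labels and 25 min by the methods, were washed and collected the next day. Treatment and collection time therefore cannot be told apart in any comparison between treatments. The treatment text of all 18 labels mentions LPS; titles and treatment entries, which name it for 6 of them, were followed. All 6 conditions share the marrow source, the culture and the growth factor, and the labels name the same pair of library kits for each sample.

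The genotype labels were checked on *Pla2g4a*, the targeted gene. The difference between KO and WT libraries was -0.41 on the log2 scale in nonconfined cells (limma adjusted p 0.00019) and -0.60 in confined cells (limma adjusted p 3.81e-08). In LPS libraries *Pla2g4a* was not lower under the KO label. The 3 labelled WT held 1005, 969 and 967 normalized counts and the 3 labelled KO held 1065, 1032 and 1028. The log2 difference was 0.09, with a limma adjusted p not under 0.05. *Acot1*, another gene that parts the genotypes in nonconfined cells, being at 478, 377 and 399.8 in nonconfined KO libraries and at 3.81, 0 and 0.983 in nonconfined WT libraries, stood at 54.9, 0.915 and 33.6 in LPS libraries labelled WT and at 0, 49.2 and 40.7 in those labelled KO. The Y-linked *Ddx3y* was high in all 6 nonconfined and confined KO libraries and near 0 in the 6 WT libraries. By this gene donor sex went with genotype, so that genotype, donor and donor sex cannot be told apart there. In LPS libraries *Ddx3y* was at 1271, 0 and 662 under the WT label and at 2.12, 1476 and 783 under the KO label. By *Acot1* and *Ddx3y*, each LPS label thus holds a library near 0 beside others well above it. LPS libraries are named below by their label alone, and log2 changes of the 9 genes that were called in a comparison with LPS are also given with the 6 LPS libraries pooled, an alternative that was chosen after the data had been seen.

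The label of the cells was checked on DC markers. All 10 genes of a DC list reached at least 10 normalized counts in each of the 18 libraries, with *Cd74* the most abundant, and the sums below are carried by it and other genes of antigen presentation. Of the 10, 1 was called higher and 2 lower with confinement in WT cells (median -0.29), beside 11.4% and 7.62% of all genes tested. In KO cells 3 were called lower (median -0.68), beside 5.53%. Between confined KO and confined WT cells 3 were called lower, *Ccr7* (-1.88), *Batf3* (-1.15) and *Irf4* (-1.13), beside 7.31%. Between the genotypes of nonconfined cells 0 of the 10 were called, beside 1.15%. Summed DC markers averaged 440169 normalized counts in nonconfined WT, 522121 in nonconfined KO, 403056 in confined WT and 364494 in confined KO libraries. In the LPS libraries the sum averaged 607384 under the WT label and 610207 under the KO label. According to the methods the semiadherent fraction was recovered, which leaves behind nonadherent granulocytes and strongly adherent macrophages. RNA of markers of other marrow cells was present nonetheless, and its levels are given below.

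IL-10 is a cytokine that restrains inflammatory gene expression in macrophages and DCs; it binds a receptor built from the chains IL-10Rα and IL-10Rβ and acts mainly through the kinases JAK1 and TYK2 and the transcription factor STAT3. IL-6, oncostatin M and LIF belong to a family whose receptors share the chain gp130, encoded by *Il6st*, and they too activate STAT3, although IL-6 is known as an inducer of acute inflammation and IL-10 as a brake on it. Myeloid cells that sense bacterial products are a known source of IL-6 and IL-10, and their transcription depends on NF-κB and on partners such as C/EBP, CREB and AP-1 factors.

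Values below are normalized counts, which are reads per gene divided by a size factor of the library. A gene was called changed when limma gave an adjusted p under 0.05 over all 17875 genes tested together with an absolute log2 fold change above 1. All 9 genes passed the filter of 10 normalized counts in at least 3 libraries, but *Il10* and *Il19* passed it only through conditions in which they are high, so a difference between conditions was built into their inclusion.

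Between confined and nonconfined WT cells, 5 of the 9 genes were called higher, namely all 5 cytokines, where 11.4% of all genes tested were called higher. In KO cells, *Il10*, *Il6* and *Osm* were called higher, which is 3 of 9 where 6.43% of all genes tested were, and 0 of 9 were called lower, where 5.53% of all genes tested were. The interaction, the change with confinement in KO cells minus that in WT cells, was called lower for *Il10*, *Il19*, *Il6* and *Lif*, 4 of 9 beside 6.56% of all genes tested. Confined KO cells compared with confined WT cells had the same 4 genes called lower, beside 7.31% of all genes tested. Both comparisons use the same confined libraries. *Il10* and *Il19* had few or no reads in nonconfined cells, so for them the calls largely repeat each other. For *Il19* both values were -2.71.

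**Figure D1:**
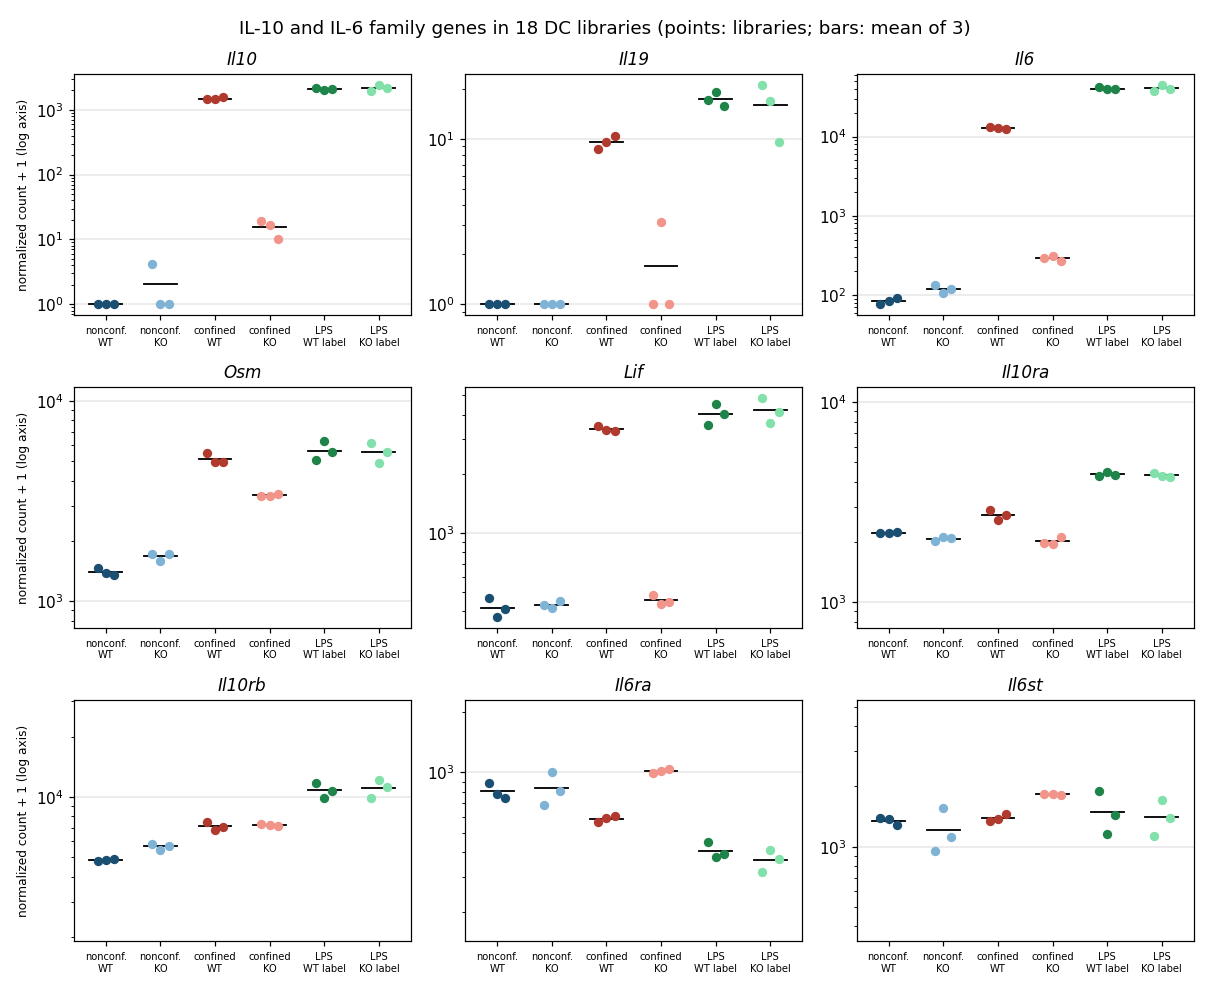
Normalized count plus 1 on a log axis for each of the 9 genes in the 6 conditions, with a point for each library and a bar at the mean of 3 libraries. *Il10*, *Il6*, *Osm* and *Lif* are higher in confined WT cells and in LPS-treated cells of either label than in nonconfined cells, *Il19* is low throughout, and *Il10*, *Il6* and *Lif* are lower in confined KO than in confined WT cells; the range of the axis differs between genes.

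*Il10* (GSMG0000816, chromosome 1, 130945887 to 130952707 on GRCm39) encodes IL-10 itself. No read was counted in any nonconfined WT library, and nonconfined KO libraries held 4, 0 and 0 reads. Confined WT libraries held 1466, 1454 and 1558 normalized counts, and confined KO libraries held 18.3, 16.0 and 9.11. The confined WT libraries were all above the confined KO libraries by a wide margin, and the confined KO libraries were all above the nonconfined ones, whose values overlap between genotypes. Within confined cells, limma gave a log2 difference between KO and WT of -6.64 ± 0.36 (SE, n = 3 each, adjusted p 2e-12), with each KO library below each WT library. The rise with confinement in KO cells was fitted at 3.22 ± 0.36 (SE, limma adjusted p 2.65e-07), a value that depends on the pseudocount, being 3.89 with a pseudocount of 0.5 and 1.70 with 5. It also rests on 4 reads in 1 nonconfined KO library (replicate 1): without it, the fitted rise was 3.90. Relative to the WT change, the interaction was -7.33 ± 0.51 (SE, limma adjusted p 2.58e-10), and -6.64 without the same library.

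In the LPS libraries *Il10* stood at 2148, 2038 and 2115 under the WT label and at 1974, 2405 and 2186 under the KO label. These values overlap between labels and lie above the confined WT libraries. Compared with nonconfined WT cells, in which no read was found, the LPS libraries labelled WT were at least 809-fold higher, against a floor of 3 reads per library. By level, the conditions ran from both LPS groups, which overlap, through confined WT and confined KO to the nonconfined groups, which overlap with each other.

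*Il19* (GSMG0002356, chromosome 1, 130860393 to 130867852) encodes another IL-10 family cytokine, and its gene lies next to *Il10*. It was counted at a low level throughout. Nonconfined libraries of both genotypes held no read, confined WT libraries held 8, 10 and 8 reads and confined KO libraries 0, 2 and 0. LPS libraries held 20, 20 and 16 reads under the WT label and 19, 14 and 7 under the KO label. All confined WT libraries were above all confined KO libraries, while confined WT and LPS libraries labelled KO overlap, as do the LPS libraries of either label. The level in confined WT cells was at least 3.31-fold higher than in nonconfined WT cells, that in LPS libraries labelled WT at least 6.34-fold higher, and that in LPS libraries labelled KO at least 5.56-fold higher than in nonconfined KO cells, with the same floor. The interaction of confinement and genotype was fitted at -2.71 ± 0.90 (SE, limma adjusted p 0.0309). That call rests on few reads: the value was -3.72 with an adjusted p of 0.198 in DESeq2, -3.47 with 1 in edgeR and -2.71 with 0.111 in a limma fit of the 4 compared conditions. The adjusted p rose to 0.0538 and 0.06 when limma was fitted without confined WT replicate 2 or 3, and to 0.062 and 0.0693 without confined KO replicate 1 or 3.

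*Il6* (GSMG0040070, chromosome 5, 30218112 to 30224979), the founding cytokine of its family, was at 75.4, 83.6 and 91.4 normalized counts in nonconfined WT libraries and at 133, 104 and 118 in nonconfined KO libraries. After confinement it was at 13389, 12713 and 12474 in WT and at 296, 307 and 267 in KO libraries. The 4 groups do not overlap, and the order from the highest is confined WT, confined KO, nonconfined KO and nonconfined WT. *Il6* rose with confinement by 7.25 ± 0.08 on the log2 scale in WT cells (SE, n = 3 each, limma adjusted p 3.12e-24), which is 153-fold. In KO cells the rise was 1.29 ± 0.08 (limma adjusted p 5.24e-11), which is 2.44-fold. The interaction was -5.97 ± 0.12 (SE, limma adjusted p 1.52e-19). Before confinement the KO libraries were higher by 0.50 (limma adjusted p 0.000666), and after confinement the difference was -5.47 (limma adjusted p 7.48e-22).

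LPS libraries held 41795, 39771 and 39584 normalized counts of *Il6* under the WT label and 37537, 44736 and 39779 under the KO label. They overlap between labels and are all above the confined WT libraries. Confined cells were lower than LPS-treated cells by a log2 difference of -1.65 with the WT label (limma adjusted p 6.33e-13) and of -7.13 with the KO label (limma adjusted p 1.87e-24). With the 6 LPS libraries pooled, these differences were -1.65 for confined WT and -7.12 for confined KO cells.

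*Osm* (GSMG0006994, chromosome 11, 4186785 to 4191026) encodes oncostatin M and was already well above the filter in nonconfined cells. Nonconfined libraries held 1466, 1388 and 1355 normalized counts in WT and 1724, 1579 and 1721 in KO cells. Confined libraries held 5502, 4974 and 4954 in WT and 3371, 3349 and 3435 in KO cells. None of these 4 groups overlap; the confined WT libraries are highest and the nonconfined WT libraries lowest. *Osm* rose by 1.87 ± 0.08 in WT cells (SE, limma adjusted p 8.49e-15) and by 1.02 ± 0.08 in KO cells (SE, limma adjusted p 5.95e-10). The KO value is close to the limit of 1 on the log2 scale and was 0.98 when each library was scaled to the same total and 0.97 without nonconfined KO replicate 2. The interaction of -0.86 ± 0.11 had an adjusted p of 2.68e-06 in limma and an absolute size under that limit. LPS libraries ranged 5052 to 6334 under the WT label and 4897 to 6137 under the KO label, which overlaps the confined WT libraries.

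*Lif* (GSMG0006995, chromosome 11, 4207411 to 4222514) lies beside *Osm* and encodes leukemia inhibitory factor. Its values were 469, 373 and 412 in nonconfined WT, 429, 414 and 451 in nonconfined KO, 3514, 3353 and 3298 in confined WT and 483, 433 and 445 in confined KO libraries. The confined WT libraries stand above the other 9, which overlap with each other. *Lif* rose by 3.02 ± 0.10 with confinement in WT cells (SE, limma adjusted p 1.61e-16), whereas the change in KO cells was 0.07 ± 0.10 (SE, limma adjusted p 0.589). The interaction was -2.95 ± 0.14 (SE, limma adjusted p 3.05e-13). LPS libraries held 3519.6, 4499.7 and 4026 under the WT label and 4847, 3603 and 4141 under the KO label, all above the confined WT libraries and overlapping with each other.

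In bulk RNA, a change in the share of cells that express a cytokine and a change in the amount per expressing cell cannot be told apart. Markers of macrophages and monocytes were followed for that reason. All 10 genes of that list reached 10 normalized counts in each library, and their sums were 60252, 58070 and 58607 in nonconfined WT, 61936, 65175 and 63270 in nonconfined KO, 189949, 181076 and 182012 in confined WT and 74409, 68825 and 72002 in confined KO libraries. In LPS libraries they were 137531, 146962 and 136639 under the WT label and 142095, 132757 and 138637 under the KO label. The sum is led by *Csf1r* in nonconfined and confined KO libraries and by *Cd14* in confined WT and LPS libraries, and *Cd14* alone was at 136116, 129232 and 129184 in confined WT libraries. Of the 10 genes, 1 was called higher and 1 lower in confined WT cells, with a median log2 change of -0.35. In the interaction 2 were called lower, *Cd14* (-3.06) and *Fcgr1* (-1.17). Over all genes tested, 11.4% were called higher and 7.62% lower in confined WT cells, and 6.56% lower in the interaction. *Fcgr1* was at 3479, 3315 and 3084 in confined WT and 1402, 1368 and 1503 in confined KO libraries, and its change with confinement was 0.06 in WT and -1.11 in KO cells. Without *Cd14* the sum averaged 57077 in nonconfined WT, 61478 in nonconfined KO, 52835 in confined WT and 55316 in confined KO libraries. Their part in the cytokine results was not tested.

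In confined WT cells each of the 4 receptor chains changed by less than 1 on the log2 scale, and each of the 5 cytokines by more. *Il10ra* (GSMG0058267, chromosome 9, 45165136 to 45180449), which encodes the chain that binds IL-10, ranged 2219.7 to 2243 normalized counts in nonconfined WT, 2015 to 2108 in nonconfined KO, 2572 to 2903 in confined WT and 1961 to 2122 in confined KO libraries. Confined WT libraries are the highest of these 4 groups, and both KO groups overlap. The change with confinement was 0.30 in WT cells (limma adjusted p 2.66e-05) and -0.04 in KO cells (limma adjusted p 0.53), with an interaction of -0.34 (limma adjusted p 0.000927), and none of the 3 passed the limit on size. Scaling each library to the same total reduced the WT change to 0.07 and the interaction to -0.15, with adjusted p of 0.228 and 0.105 in limma. LPS libraries ranged 4269.8 to 4496 under the WT label and 4208 to 4433 under the KO label, above all others.

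*Il10rb* (GSMG0021216, chromosome 16, 91203051 to 91222721) encodes a chain shared by receptors of IL-10, IL-22 and interferon lambda. It was at 4789 to 4896 in nonconfined WT, 5440.1 to 5824 in nonconfined KO, 6861 to 7459.9 in confined WT and 7123 to 7359 in confined KO libraries. Confined libraries of either genotype overlap and are all above the nonconfined libraries, among which the KO libraries are higher. The change with confinement was 0.56 in WT cells (limma adjusted p 1.5e-07) and 0.36 in KO cells (limma adjusted p 9.27e-05), both under the limit on size, and the interaction was -0.20 (limma adjusted p 0.108). The LPS libraries, at 9869 to 11744 under the WT label and 9849.8 to 12102 under the KO label, are the highest and overlap.

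*Il6ra* (GSMG0035551, chromosome 3, 88641344 to 89820504 in the table) encodes the chain that binds IL-6, and its entry is the one that overlaps 60 others. Its values were 883, 783 and 748 in nonconfined WT, 682, 1005 and 802 in nonconfined KO, 564, 593 and 603 in confined WT and 993, 1018 and 1037 in confined KO libraries. Confined WT libraries lie below all nonconfined libraries, and the confined KO libraries overlap the highest nonconfined KO library. The change with confinement was -0.45 in WT cells (limma adjusted p 0.00196) and 0.31 in KO cells (limma adjusted p 0.0318), with an interaction of 0.76 ± 0.16 (SE, limma adjusted p 0.00117), each under the limit on size. With 1 library left out, the change in KO cells ran from 0.18 to 0.46. LPS libraries had the lowest values, 447, 376 and 388 under the WT label and 316, 411 and 370.1 under the KO label, and the labels overlap.

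Summed neutrophil markers, like *Il6ra*, were higher in confined KO than in confined WT cells. All 10 genes of that list were at 10 or more in each library, led by *S100a9*, with sums of 239174, 244267 and 242642 in nonconfined WT, 370358, 333024 and 358226 in nonconfined KO, 154396, 147187 and 144998 in confined WT and 334024, 346858 and 330984 in confined KO libraries. The sums in LPS libraries were 309149, 290445 and 292501 under the WT label and 277078, 312719 and 294718 under the KO label, higher than in confined WT libraries, while *Il6ra* was lower there. In nonconfined cells the neutrophil sums were higher in KO libraries too, whereas *Il6ra* differed by 0.03 (limma adjusted p 0.921). Eosinophil marker sums, given below, were also higher in confined KO than in confined WT libraries, and DC marker sums were lower. The part of these markers in the *Il6ra* result was not tested.

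*Il6st* (GSMG0013870, chromosome 13, 112600604 to 112643394), the gene of gp130, had values of 1382, 1368 and 1287 in nonconfined WT and 954, 1554 and 1115 in nonconfined KO libraries. In confined libraries they were 1347, 1379.7 and 1456 in WT and 1838, 1840.5 and 1802 in KO cells. The confined KO libraries are above the other 9 of these 4 groups and lie close together, while the nonconfined KO libraries spread widely and overlap both WT groups. The change in KO cells was 0.63 ± 0.16 (SE, limma adjusted p 0.00268), under the limit on size, and that in WT cells was 0.05 ± 0.16 (SE, limma adjusted p 0.811), which turned to -0.17 when each library was scaled to the same total. The interaction of 0.58 had an adjusted p of 0.0649 in limma, and of 0.0106 with the same total per library. LPS libraries, at 1903, 1154 and 1436 under the WT label and 1131, 1704 and 1388 under the KO label, spread over much of the range of the other groups.

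**Figure D2:**
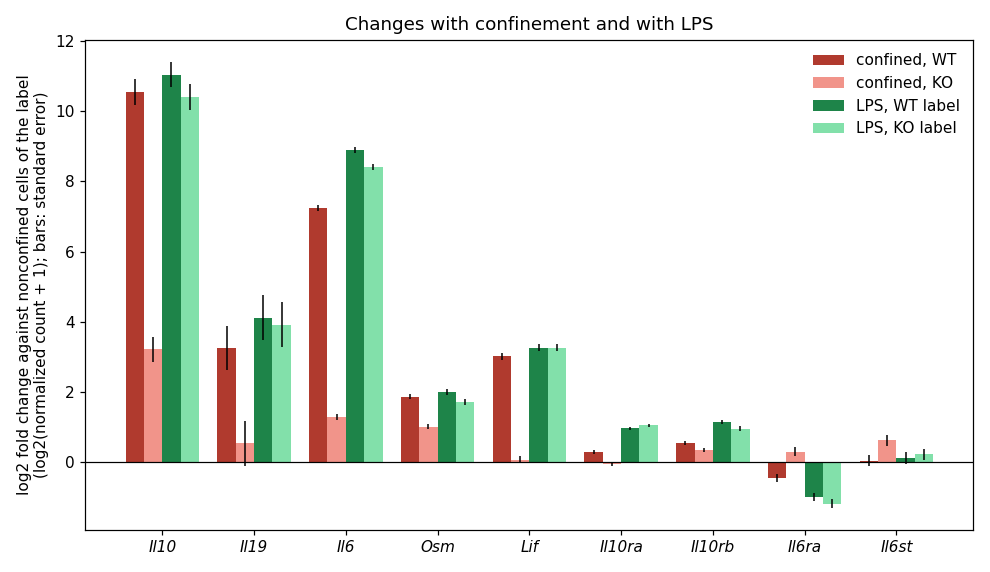
Log2 fold change against nonconfined cells of the same genotype label, from limma on log2(normalized count + 1), for the 9 genes after confinement and after LPS, with bars for the standard error (n = 3 libraries in each condition). Fitted changes of *Il10* and *Il19* depend on the pseudocount because their nonconfined libraries hold few or no reads; *Il6* changed by 7.25 in confined WT and 1.29 in confined KO cells.

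For nonconfined cells, the comparison of genotypes called 0 of the 9 genes with limma, beside 1.15% of all genes tested. At an unadjusted p under 0.05 it was 4 of the 9 beside 22.4% of all genes tested, and edgeR and DESeq2 called 0. With no limit on size, 3 of the 9, *Il6*, *Osm* and *Il10rb*, had a limma adjusted p under 0.05, beside 8.88% of all genes tested. In each of these 3 the KO libraries were all higher, by 0.50 for *Il6*, 0.25 for *Osm* and 0.22 for *Il10rb*. Marker sums differed between these groups too, with WT first: 242028 and 353870 for neutrophils, 28634 and 66705 for eosinophils and 440169 and 522121 for DCs. Their part in this result was not tested. For the LPS libraries the comparison of labels called 0 of the 9 genes with limma, 0% of all genes tested being called, and edgeR and DESeq2 called 0 as well. At an unadjusted p under 0.05 it was 0 of the 9 genes and 890 of the 17875 tested, which is 4.98%. Since the labels of these libraries are in doubt, nothing about the genotypes under LPS was read from this comparison.

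Between LPS and nonconfined cells, 6 of the 9 genes were called higher with the WT label (*Il10*, *Il19*, *Il10rb*, *Il6*, *Osm* and *Lif*), beside 15.0% of all genes tested. With the KO label 6 were called higher, beside 15.0%, with *Il10ra* in place of *Il10rb*, and *Il6ra* was called lower, 1 of 9 beside 12.9%. The pair that changes place is near the limit: *Il10rb* rose by 1.15 with the WT label and was higher by 0.96 with the KO label, and *Il10ra* was higher by 0.97 with the WT label and rose by 1.05 with the KO label. *Il6* rose by 8.91 and 8.41 (limma adjusted p 8.31e-26 and 1.72e-25), *Osm* by 2.00 and 1.72, and *Lif* by 3.26 and 3.27, in the order WT label and KO label. With the 6 LPS libraries pooled, *Il6* rose by 8.91 over nonconfined WT and by 8.41 over nonconfined KO cells, *Il10* by 11.06 and 10.38, *Il19* by 4.02 and 4.02, *Osm* by 1.99 and 1.73, and *Lif* by 3.29 and 3.24, while *Il10rb* was higher by 1.17 and 0.94 and *Il10ra* by 0.96 and 1.06. For *Il10* and *Il19* the rises depend on the pseudocount, since nonconfined libraries hold few or no reads. Against a floor of 3 reads per library, LPS libraries labelled WT exceeded nonconfined WT libraries by at least 9.66 and 2.66 on the log2 scale. These receptor results depend on the scaling: with the same total per library *Il10rb* was at 0.64 with the WT label and *Il10ra* at 0.57 with the KO label, both under the limit. Without LPS replicate 1 of the KO label, *Il10rb* passed it at 1.04. Pooled, *Il6ra* was called lower against both, at -1.07 and -1.10, whereas with the WT label it was at -0.99 and not past the limit. This result is near the limit as well: it was -1.51 with the same total per library, -1.04 with TMM scaling, -1.04 in edgeR and -1.02 in DESeq2, all called, and it passed the limit at -1.01, -1.04 and -1.07 without nonconfined WT replicate 2, without replicate 3 or without LPS replicate 1 of the WT label. The comparisons with LPS and with confinement share their nonconfined libraries.

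Confined and LPS-treated cells were also compared directly. With the WT label *Il6* was called lower in confined cells, 1 of 9 beside 7.51% of all genes tested. With the KO label 5 of 9 were called lower in confined cells (*Il10*, *Il19*, *Il10ra*, *Il6* and *Lif*), beside 12.6%, and *Il6ra* was called higher, 1 of 9 beside 10.4%. The differences in the order WT label and KO label were -0.49 and -7.19 for *Il10*, -0.13 and -0.70 for *Osm* and -0.24 and -3.20 for *Lif*. With the LPS libraries pooled the same genes were called, and the differences were -0.52 and -7.16 for *Il10*, -0.12 and -0.72 for *Osm* and -0.27 and -3.17 for *Lif*; against confined KO cells they were -3.47 for *Il19*, -1.10 for *Il10ra* and 1.41 for *Il6ra*. For *Osm* and *Lif* the sign in WT cells depends on the scaling, since it is 0.16 and 0.05 when each library has the same total, a scaling that also brings *Il10ra* with the KO label to -0.65, under the limit.

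Scaling matters to these comparisons because scaling each library to the same total moves the median log2 change of all genes tested to -0.23 for confinement in WT cells, to -0.02 for confinement in KO cells, to 0.24 for the interaction, to -0.47 for LPS with the WT label and to -0.44 with the KO label. The shares of all genes tested that were called move as well: under this scaling 9.57% were called higher and 24.3% lower for LPS with the KO label, 9.64% and 24.6% with the WT label, 21.5% and 8.56% for confined against LPS-treated cells with the KO label. For confinement in WT cells 1618 were called higher and 2141 lower, against 2038 and 1362 as reported. Relative to that shift, the WT changes of *Il6* and *Lif* are far larger, that of *Il10ra* (0.30) is of like size and that of *Il6st* (0.05) is smaller. *Il6* rose by 7.03 in confined WT cells under this scaling and *Lif* by 2.80.

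Levels of different genes were compared per kb of annotated exon, a scale that divides the mean normalized count by exon length. On that scale nonconfined WT cells held 789 of *Il10rb*, 618 of *Osm*, 509.6 of *Il10ra*, 90.8 of *Il6ra*, 90.7 of *Lif*, 86.7 of *Il6st* and 34.4 of *Il6*. In confined WT cells *Il6* led with 5296, followed by *Osm* with 2264, *Il10rb* with 1163, *Il10* with 1139, *Lif* with 736 and *Il10ra* with 626. Confined KO cells instead had *Osm* first with 1489.9, *Il6* at 119 and *Lif* at 98.5. Cytokine genes thus covered a range from no reads to the top of the 9, whereas *Il6st* stayed between 77.8 and 118 per kb over the 6 conditions.

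Other ligands and receptors of both families came from lists of their names. Of the other IL-10 family ligands, 1 of 5 in the table was tested, *Il22*, with 19.3, 24.0 and 9.48 normalized counts in confined WT libraries against 3.05, 1.71 and 0 in nonconfined ones, and its log2 change was 2.98. *Il22* and *Osmr*, like *Il10* and *Il19*, passed the filter only through conditions in which they are high. *Il20* and *Il24*, which lie beside *Il10* and *Il19*, were under the filter: *Il20* had reads in LPS libraries alone, at 1.62, 0 and 0 under the WT label and 8.49, 6.87 and 2.47 under the KO label, and *Il24* had reads in 1 confined KO library. Of the other IL-10 family receptors, 1 of 2 tested was called higher in confined WT cells, *Il20rb* (1.09), beside 11.4% of all genes tested. The median of these receptors was 0.43.

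Of the other IL-6 family ligands, 2 of 4 tested were called higher in confined WT cells, beside 11.4% of all genes tested. The median log2 change of the 4 was 1.22, beside -0.01 over all genes tested. The same 2 were called lower in the interaction, beside 6.56%. They are *Il27*, at 38.1, 36.7 and 36.4 in nonconfined and 467, 472 and 549.6 in confined WT libraries, and its partner subunit *Ebi3* (1.52). *Il27* was at 66.9, 51.2 and 41.9 in confined KO libraries, with an interaction of -3.28 (limma adjusted p 6.54e-12). Of the other IL-6 family receptors, 1 of 5 tested was called higher and 2 lower in confined WT cells. Over all genes tested, 11.4% were called higher and 7.62% lower there. The median of the 5 was -0.70, which is the same with *Osmr* at its bound. *Osmr*, which pairs with gp130 to bind oncostatin M, had no read in nonconfined WT libraries and 10.6, 15.4 and 14.2 normalized counts in confined WT libraries, at least 5.17-fold higher against 3 reads per library. *Lifr*, which pairs with gp130 to bind LIF, went from 251, 300.2 and 327 to 67.6, 42.9 and 50.9 in WT libraries and from 245, 267 and 269.8 to 35.6, 57.6 and 39.2 in KO libraries, and fell in both (-2.44 and -2.57, limma adjusted p 1.68e-08 and 1.62e-08). *Lif* therefore rose in WT cells where *Lifr* fell, whereas in KO cells *Lifr* fell with no called change of *Lif*. The interaction for *Lifr* was -0.13 (limma adjusted p 0.832). The other gene called lower was *Il31ra*, at 22.9, 19.6 and 12.8 in nonconfined and 4.83, 8.58 and 13.0 in confined WT libraries.

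Downstream of these receptors, 4 of 16 genes of JAK and STAT signalling and receptor shedding were called higher in confined WT cells. That is beside 11.4% of all genes tested, and the median was 0.48. In the interaction 6 of 16 were called lower, beside 6.56%. *Stat3*, the main factor of both families, was at 4989, 4823 and 4857 in nonconfined and 15959.5, 15471 and 15924 in confined WT libraries, against 4194, 5031 and 4537 and 5875, 5317 and 5425 in KO libraries. Its interaction was -1.42 (limma adjusted p 4.38e-10), and confined WT libraries are above all the others of these 4 groups. *Socs3*, a STAT3-induced inhibitor of gp130 signalling, rose by 3.27 in WT cells and was higher by 0.41 in KO cells, under the limit on size, with an interaction of -2.86 (limma adjusted p 1.05e-17). *Jak2* and *Stat5a* rose in WT cells (1.31 and 1.77), while *Jak1* and *Tyk2*, the kinases of the IL-10 receptor, changed by 0.26 and 0.09, near or under the size of the shift with scaling.

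Of 14 genes known to be induced through STAT3, 11 were called higher and 1 lower in confined WT cells, with a median of 1.74. Over all genes tested, 11.4% were called higher and 7.62% lower there. In KO cells 2 of the 14 were called higher, beside 6.43% of all genes tested, with a median of 0.46. The interaction was called lower for 9 of the 14, beside 6.56%. The list was chosen with earlier results of these data known, so these counts are a description. The antagonist gene *Il1rn* was at 154259, 147351 and 148372 in confined WT and 57399, 55879 and 56065 in confined KO libraries and rose in both genotypes (3.60 and 2.06). *Ddit4* rose by 3.34 in WT cells. Many of these genes also respond to other signals, and whether STAT3 was active was not tested.

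Among 16 known regulators of *Il10*, 6 were called higher and 1 lower in confined WT cells (median 0.85). Over all genes tested, 11.4% were called higher and 7.62% lower there. In KO cells 2 of the 16 were called higher, beside 6.43% of all genes tested. The interaction was called lower for 5 of the 16, beside 6.56%. *Crem*, a CREB family factor, was at 1151, 1047 and 1033 in confined WT, 472, 479 and 457 in confined KO, 187, 242 and 221 in LPS libraries labelled WT and 243, 195 and 219.6 in LPS libraries labelled KO, so its level in confined cells of either genotype was above that in LPS libraries, unlike *Il10*. Among 12 known regulators of *Il6*, 7 were called higher in confined WT cells (median 1.74) and 4 in KO cells. The interaction was called lower for 5 of them. Over all genes tested the shares were 11.4%, 6.43% and 6.56% in the same order. *Nfkbiz*, whose product IκBζ promotes *Il6* transcription, was at 331, 283 and 284 in nonconfined and 16332, 16112 and 16025 in confined WT libraries and at 1000.3, 1025 and 969.6 in confined KO libraries, with an interaction of -3.97 (limma adjusted p 3.33e-18). *Zc3h12a*, which encodes an RNase that degrades *Il6* mRNA, rose in both genotypes (2.91 and 1.03). *Rel* and *Nfkb1*, which are on both lists, rose by 2.25 and 2.10 in WT cells.

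Neighbours on the chromosome were examined because *Il10*, *Il19*, *Il20* and *Il24* lie in 1 cluster. The list of 10 genes covers the loci of *Il10*, *Il19* and *Il10rb*, and it leaves out neighbours of the other members. It also holds *Tomm7*, which at 24043943 to 24049143 on chromosome 5 lies far from *Il6* and is no neighbour. Of the 10, 7 were tested and 1, *Ifnar1* beside *Il10rb*, was called higher in confined WT cells (1.08), where 11.4% of all genes tested were. The median was 0.60. *Mapkapk2*, which lies beside *Il10* and encodes a kinase that stabilises cytokine mRNA, was at 14349 to 14571 in nonconfined, 25674 to 27361 in confined and 49915 to 59518 in LPS libraries with the WT label. *Ifnar2*, on the other side of *Il10rb*, changed by 0.61 in WT cells.

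The genes whose pattern over the 18 libraries was most like that of *Il10*, *Il6*, *Osm*, *Il19* and *Il6ra* were found among 10999 genes with a highest group mean of at least 100, by Pearson's r of log2(normalized count + 1). This is a description, since the libraries fall into conditions. For *Il10* they were *Tlr2* (r 0.9955), *Bcl3* (0.9953), *Ptges* (0.9946), *Stx11* (0.9946) and *Src* (0.9945). For *Il6* they were *Plscr1* (0.9979), *Ccrl2* (0.9979), *Rhoc* (0.9977), *Tnfaip3* (0.9974) and *Casp4* (0.9972). *Osm* was most like *Hilpda* (0.9968), *Rilpl2* (0.9942), *Cd81* (0.9941), *Il1rn* (0.9916) and *Tgm2* (0.9915). *Il19* was most like *Marf1* (0.9809), *Lemd3* (0.9780), *Rhoc* (0.9777), *Plscr1* (0.9772) and *Tmem67* (0.9771), with many of its own values at 0. *Il6ra* was most like *Oxr1* (0.9803), *Frrs1* (0.9717), *Arl11* (0.9711), *Cux1* (0.9708) and *Cd84* (0.9703).

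Windows of 250 bases at *Il6*, *Lif*, *Osm*, *Il19*, *Il10ra*, *Il10rb*, *Il6ra* and *Il6st* were read from GRCm39 and searched on both strands for 5 short motifs: STAT (TTCNNNGAA), kappa B (GGGNNTTCC), CRE (TGACGTCA), AP-1 (TGANTCA) and ISRE (GAAANNGAA). For *Il6*, *Lif*, *Osm*, *Il10rb* and *Il6st* the window ends at the base before the GENCODE M39 gene start. That of *Il19* (130866979 to 130867228) lies inside its minus-strand gene, annotated to 130867852. Those of *Il10ra* (45180448 to 45180697) and *Il6ra* (89820504 to 89820753) overlap their minus-strand genes, annotated to 45180563 and 89820719. Of 21757 promoters of the same length, 7.70% hold the STAT letters, 5.03% those of kappa B, 1.70% those of CRE, 6.18% those of AP-1 and 7.56% those of ISRE. Of these 8 genes, *Il6* and *Lif* have 1 AP-1 match each that overlaps no other. The window of *Il10* is not described here. None of the 5 motifs occurs in the windows of the other 6 of these 8 genes. For *Il19*, *Il10ra* and *Il6ra* this does not cover all of the 250 bases before the annotated gene start. The 2 of these 8 windows with a match are shown because *Il6* and *Lif* are high in confined WT cells and low in confined KO cells. They lie at chr5:30217862-30218111 and chr11:4207307-4207556 on the plus strand, with the AP-1 match in capitals. The 9 letters used for kappa B leave out longer forms of that site. The 10-base form GGGRNNYYCC was searched after the windows had been seen and is present in 7.63% of promoters. Among these 8 genes it has 1 match each in the windows of *Il6* (GGGATTTTCC, from -44 to -35), *Lif* (GGGACGCCCC, from -167 to -158) and *Il10ra* (GGAGGTTCCC, from -88 to -79). Positions are counted from -1 at the last base of each window, and the *Il10ra* match lies inside the annotated gene. A match describes letters and says nothing of binding.
Il6: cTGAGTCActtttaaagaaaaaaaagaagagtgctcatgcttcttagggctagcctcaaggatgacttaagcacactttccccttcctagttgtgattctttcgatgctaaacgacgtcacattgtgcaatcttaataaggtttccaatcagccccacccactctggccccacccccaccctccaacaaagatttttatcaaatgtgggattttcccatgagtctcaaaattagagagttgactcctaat
Lif: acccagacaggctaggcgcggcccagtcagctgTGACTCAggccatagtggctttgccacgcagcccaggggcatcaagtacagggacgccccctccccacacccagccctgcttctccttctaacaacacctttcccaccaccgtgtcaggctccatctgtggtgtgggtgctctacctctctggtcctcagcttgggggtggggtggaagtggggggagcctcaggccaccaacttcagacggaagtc

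RNA of further cell types was followed by lists of marker genes. Eosinophil markers summed to 28634 in nonconfined WT, 66705 in nonconfined KO, 7372 in confined WT and 16675 in confined KO libraries on average, led by *Prg2*, with the lowest sum in confined WT cells. Mast cell and basophil markers summed to 10684, 15568, 16769 and 9021 in the same order, led by *Hdc* in confined WT libraries. Without *Hdc* they summed to 9949, 14528, 4399.6 and 7563. Among the 10 genes, 1 was called higher and 6 lower in confined WT cells, with a median of -1.51. The shares over all genes tested were 11.4% higher and 7.62% lower. Lymphocyte markers summed to at most 2934, led by *Cd3g*, with *Ncr1* at 0 in each confined library, and markers of fibroblasts and stroma to at most 305, on average over a condition. No protein was measured in these libraries, so secretion of the cytokines cannot be read from them.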

How the data were processed

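The deposited signal of each gene in 18 libraries was made by the authors: reads were mapped to mm39 with STAR 2.7.5a, counted for Mouse FAST DB genes and divided by DESeq2 size factors. Whole reads were recovered by finding the factor of each library (100% of values whole, largest deviation 6.4e-10), with a median of 40950397.5 reads per library, so counting error is small except for genes near 0. Groups and replicate numbers came from the labels.

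Log2(normalized count + 1) was fitted with limma 3.58.1 in R 4.3.3 (a mean per condition, eBayes with trend), for genes that reached 10 normalized counts in 3 libraries or more, with Benjamini-Hochberg adjustment over all genes tested within each of 10 comparisons. Alternatives were other pseudocounts, filters, scalings and thresholds, edgeR 4.0.16, DESeq2 1.42.0, a replicate block, the compared conditions alone, each library left out and pooled LPS labels. The pipeline was tested on simulated data. The 9 genes and all lists were chosen with earlier results of these data known. All 9 genes are named. Of each other list, the 3 called genes with the largest change in confined WT cells, 5 JAK, STAT or SOCS genes and some of the genes sharing a locus with a member are named, except that marker lists are given by their sums and leading genes. *Acot1*, *Ddx3y*, *Ncr1*, *Fcgr1*, *Ccr7*, *Batf3* and *Irf4* were named after their values were seen. Marker sums without the leading gene and a 10-base kappa B motif were likewise added after seeing the data. Floors are 3 reads per library and cover counting error only.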

Additional observations from a re-analysis of the deposited data

Results flagged for a closer look

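The change with confinement differed between the genotypes, by the limma test of that difference over 3 libraries per condition, for 7 of the 9 genes at an adjusted p under 0.05, whatever their size, beside 25.8% of all genes tested. For *Il10* and *Il19*, which passed the filter only through conditions in which they are high, a difference between conditions was built into their inclusion. The KO change minus the WT change on the log2 scale was -7.33 for *Il10*, -2.71 for *Il19*, -0.34 for *Il10ra*, -5.97 for *Il6*, -0.86 for *Osm*, -2.95 for *Lif* and 0.76 for *Il6ra*. Those of *Il10ra*, *Osm* and *Il6ra* are under the limit of 1 on size. The count of 7 depends on the fit: *Il19* was at -3.72 with an adjusted p of 0.198 in DESeq2, at -3.47 with 1 in edgeR and at -2.71 with 0.111 in limma with the 4 compared conditions alone, and *Il10ra* was at -0.15 with an adjusted p of 0.105 when each library had the same total. In contrast, *Il6st* had a limma adjusted p under 0.05 with that scaling, as given above. Genotype, donor and donor sex cannot be told apart in these libraries.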

How the results depend on the processing

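The number of the 9 genes called ranged over the alternatives from 4 to 5 for confinement in WT cells (5 as reported), from 2 to 4 in KO cells (3), from 3 to 6 for the interaction (4) and for the genotypes in confined cells (4), from 5 to 8 and from 6 to 8 for LPS with the WT and KO label (6 and 7), from 5 to 8 for confined against LPS-treated cells with the KO label (6), and stayed 0 for the genotypes in nonconfined cells and for the labels in LPS-treated cells. For confined against LPS-treated cells with the WT label it was 3 instead of 1 under the thresholds of the study's methods (1.5-fold, with p under 0.05 before adjustment), because that limit on size is lower.

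Pseudocounts of 0.5 and 5 and no filter changed neither direction nor call in any of 90 single-gene results each. The replicate block left all 90 as they were; among same-number libraries no pair of groups had all 3 correlations above 0.1, and pairing was not used. A filter of 100 normalized counts left 80 results, all of the same direction and call, and removed *Il19*.

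Scaling each library to the same total reversed 7 values: *Il6st* to -0.1740 for confinement in WT cells, to -0.3885 for LPS with the WT label, to -0.2486 with the KO label and to 0.2144 for confined against LPS-treated cells with the WT label, *Osm* and *Lif* in that last comparison to 0.1576 and 0.0503, and *Il6ra* between genotypes in nonconfined cells to -0.0039. The same scaling took *Osm* in confined KO cells, *Il10rb* under LPS with the WT label, and *Il10ra* under LPS and against confined cells with the KO label below the limit, and brought *Il6ra* under LPS with the WT label past it, at -1.5065, as did TMM (-1.0390), edgeR (-1.0400) and DESeq2 (-1.0240). *Il10rb* between genotypes in confined cells was -0.0081 with TMM scaling and -0.0084 with edgeR. The cause was not tested.

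With 1 library left out, 566 of 594 values kept direction and call, and 19 reversed. The reversed results ran from -0.0261 to 0.1388 for *Lif* and from -0.1177 to 0.1614 for *Il6ra* between genotypes in nonconfined cells, and from -0.0069 to 0.0534 for *Il10rb* in confined cells. Between labels of LPS-treated cells they ran from -0.0155 to 0.1269 for *Il10*, from -0.4427 to 0.1245 for *Il19*, from -0.0358 to 0.1128 for *Il10rb*, from -0.0632 to 0.0634 for *Il6*, from -0.1075 to 0.0560 for *Osm*, from -0.0486 to 0.1653 for *Lif* and from -0.2521 to 0.1082 for *Il6st*. For *Il6st*, LPS with the WT label ran from -0.0630 to 0.2974 and confined against LPS-treated cells from -0.2465 to 0.1139. The cause was not tested.

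Pooling the LPS labels, chosen after seeing the data, kept 35 of 36 results, and *Il6ra* against nonconfined WT cells passed the limit at -1.07. Depth limits *Il19*, *Il10* in nonconfined cells and *Osmr*, whose fitted changes rest on few reads. Leaving out a library leaves 2 in its group.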

Other observations

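Pairs of LPS libraries were compared by the mean chi-square per gene over 10876 genes, a measure of how far the reads of 2 libraries differ beyond their depth, with lower values for more alike libraries. Across labels, the 9 pairs ran from 6.03 to 53.1, with the 2 lowest values for WT replicate 2 and KO replicate 1 (6.03) and for WT replicate 3 and KO replicate 3 (7.29). WT replicate 1 was nearest to WT replicate 3 (15.5) and KO replicate 2 to KO replicate 3 (11.8). Within labels, the values ran from 15.5 to 59.5 for WT and from 11.8 to 45.6 for KO. Within the nonconfined and confined groups they ran from 4.34 to 22.1.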
